A study of Mus musculus with 18 samples.

Results

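E2f1, E2f2, E2f3, E2f4, E2f7, E2f8, Rb1, Rbl1 and Rbl2 encode E2F transcription factors and the retinoblastoma family proteins that bind them. These 9 genes were taken by symbol from the deposited tables. All 9 of them were among the 24072 genes of the spleen count table and passed its mean of 50 counts, as 10166 genes did. All 9 were also among the 10702 genes of the count table of both BFU-E populations, which the authors had filtered on a mean of 50 counts. In the 2 lists of ATAC peaks, 46 of 61661 stress peaks and 25 of 35142 bone marrow peaks were assigned to them.

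Cells divide when cyclin-dependent kinases phosphorylate the retinoblastoma proteins and release E2F factors, which act on genes for DNA synthesis. E2f1, E2f2 and E2f3 are known mainly as activators, E2f4 as a factor that works with the retinoblastoma relatives p107 (Rbl1) and p130 (Rbl2) in repression, and E2f7 and E2f8 as atypical E2Fs that bind DNA without a DP partner and repress. In mice, loss of E2f4 or of Rb1 disturbs red cell formation, and loss of E2f8 worsens the anaemia of Rb1-deficient mice.

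Stress erythropoiesis is the burst of red cell formation that follows loss of blood or of marrow, and in mice it runs largely in the spleen. RNA was sequenced from 12 libraries of B6SJL mice, 3 for each of 4 sorted populations, and ATAC-seq, which maps open chromatin, was run on 3 libraries of each BFU-E population. The stress spleen populations came from recipients on day 8 after lethal irradiation and a transplant of unfractionated marrow: burst-forming erythroid progenitors (stress BFU-E, Sca1-negative), multipotent progenitors (MPP, Sca1-positive) and colony-forming erythroid progenitors (CFU-E, CD9-negative). The stress BFU-E were set against the Sca1-negative BFU-E from the bone marrow of mice at steady state (BM BFU-E) and labelled with neither treatment. All cells were depleted of lineage-positive cells before sorting. Tissue, irradiation with transplantation and the fluorophore on the biotinylated antibodies all differ between the BFU-E populations, so their parts cannot be told apart. The antibodies that the labels list include none that separates donor from host cells, and nothing says whether replicates are separate animals, so p-values measure the spread between these libraries, which may be technical.

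Libraries of the spleen count table held 5937778 to 13197159 counts and BFU-E libraries held 6758871 to 12926718 in the table restricted to them, and the 9 genes had 141 to 4646 counts each in a library. In stress BFU-E libraries 0.42% to 0.738% of the genes in the BFU-E table were at 0, against 1.53% to 15.3% in BM BFU-E libraries, with the highest share in BM 3. The summed level of 8 erythroid markers was 565 to 657 CPM (counts scaled to library size) in MPP, 752 to 850 in stress BFU-E and 2140 to 2183 in CFU-E, and that of 7 stem cell markers was 368 to 460, 107 to 120 and 26.0 to 39.8 CPM, in the order of the labels. Car1 (644 CPM) and Ermap (393.5 CPM) were the largest parts of the CFU-E erythroid sum. Single markers went against the order of the sums. The mean of Nfe2 was 238 CPM in stress BFU-E and 189 in CFU-E, and that of Epor 27.3 CPM in MPP and 22.5 in stress BFU-E. Among the stem cell markers, Ly6a was at 0.286 CPM in stress BFU-E and 1.94 in CFU-E. Markers of other lineages moved too: 5 megakaryocyte markers summed to 880 to 1027 CPM in MPP, 1505 to 1779 in stress BFU-E and 85.5 to 106 in CFU-E, and 8 myeloid markers to 80.9 to 460, 634 to 769 and 22.3 to 63.1 CPM. Mpo was the largest part of the myeloid sum in stress BFU-E (534.5 CPM) and ran from 18.3 to 285 CPM between MPP libraries. Lyz2 and S100a8 went the other way, with means of 62.2 and 10.9 CPM in MPP and 50.3 and 6.11 in stress BFU-E. In this bulk RNA, fewer cells of a type and less RNA per cell cannot be told apart, and the part of these other lineages in the results below was not tested. The strand used in counting is not stated, so a gene and an antisense partner cannot be told apart.

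E2F factors bind a short GC-rich DNA word, and several of their own promoters are known to carry it. The word was searched as TTTCCCGC, TTTCGCGC, TTTGCCGC and TTTGGCGC on both strands, within 500 bases of the start site of the counted transcript. Of the 6 genes searched, each with an entry in the RefSeq promoter table for build GRCm38.p6 (mm10), 5 (83.3%) had it, all but Rbl2, against 7.49% of 17073 genes. Among the 8241 genes with at least the lowest GC content of those 6 (56.0%), the share was 11.3%. A match is a description of the letters and does not show binding. E2f4, E2f8 and Rb1 were not searched.

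The stretches below are the matches nearest the start site, shown because 4 of these genes carry the word within 40 bases of it. They run 5′ to 3′ on the strand of the gene, with the word in capitals, and come from the GRCm38.p6 reference.
E2f1 chr2:154569864-154569893, minus strand: ctttcGCGGCAAAaaggaTTTGGCGCgtaa
E2f2 chr4:136172302-136172331, plus strand: gcggcatatagTTTGGCGCtaaaaaaaaaa
E2f3 chr13:29986056-29986085, minus strand: ttgaaaagccgGCGGGAAAtctgagtttcg
Rbl1 chr2:157204534-157204563, minus strand: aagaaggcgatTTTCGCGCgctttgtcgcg
The E2f1 stretch holds 2 words on opposite strands. The first of them begins at position +5, counting the start site as +1. In E2f2 the word begins at +40, in E2f3 at −11 and in Rbl1 at −18. Rbl1 had a further match at +406. E2f7 had one at −224. The 250 bases before the start sites of E2f7 and E2f2 are shown next, because E2f7 had the largest called change of RNA in the fit of the spleen counts and E2f2 a promoter peak in stress BFU-E alone.
E2f7 chr10:110745215-110745464, plus strand: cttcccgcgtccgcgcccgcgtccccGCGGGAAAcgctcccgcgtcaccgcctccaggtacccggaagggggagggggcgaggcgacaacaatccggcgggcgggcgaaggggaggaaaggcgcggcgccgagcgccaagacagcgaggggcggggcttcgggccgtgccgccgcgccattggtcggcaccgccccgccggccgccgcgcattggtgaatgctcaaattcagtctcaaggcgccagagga
E2f2 chr4:136172024-136172273, plus strand: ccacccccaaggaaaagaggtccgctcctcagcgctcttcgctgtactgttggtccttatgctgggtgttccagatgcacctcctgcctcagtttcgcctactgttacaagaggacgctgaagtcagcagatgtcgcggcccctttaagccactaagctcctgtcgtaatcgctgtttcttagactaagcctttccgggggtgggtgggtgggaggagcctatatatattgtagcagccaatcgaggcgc
The E2f2 stretch is in lower case throughout, since its word lies after the start site, in the stretch given above. All 6 of the stretches shown overlapped an ATAC peak of stress BFU-E, and all but the 2 of E2f2 also overlapped a peak of BM BFU-E.

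By the mean level per transcript length, E2f4 was highest of the 9 genes in every population, E2f8, Rbl1 and Rbl2 followed in that order, and E2f2 was lowest. E2f4 measured 60.8 ± 8.59 RPKM (reads scaled to transcript length and library size; mean ± SD, n = 3) in MPP, 55.8 ± 7.33 in stress BFU-E and 83.0 ± 10.2 in CFU-E, and 69.5 ± 19.5 in BM BFU-E. E2f8 measured 31.3 ± 6.81 RPKM in MPP, 47.1 ± 5.71 in stress BFU-E and 38.3 ± 5.16 in CFU-E, and 51.6 ± 17.5 in BM BFU-E. E2f2 measured 2.96 ± 0.576 RPKM in MPP, 2.16 ± 0.847 in stress BFU-E and 3.04 ± 0.734 in CFU-E, and 4.28 ± 0.399 in BM BFU-E. Many neighbours in this order did not differ beyond their spread: in stress BFU-E the means of E2f1, Rb1, E2f7 and E2f3 ran only from 9.32 to 7.58 RPKM, and neighbours among them were closer than the larger of their SDs. In BM BFU-E the means of E2f4 and E2f8 were also closer than the larger of their SDs, and in CFU-E so were those of E2f2 and E2f7 (3.59 ± 0.637 RPKM). In BM BFU-E the lowest libraries of E2f1 (3.47 RPKM) and Rb1 (3.90 RPKM) were below the lowest of E2f2 (4.03 RPKM).

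As a share of the summed RPKM of the 6 E2F genes among the 9, E2f4 held 50.4 ± 0.827% in MPP, 42.7 ± 1.68% in stress BFU-E and 58.3 ± 0.91% in CFU-E. E2f8 held 25.8 ± 1.69%, 36.1 ± 1.16% and 26.8 ± 1.07% in the same order, and E2f7 7.62 ± 0.539%, 6.42 ± 0.786% and 2.53 ± 0.369%. The most abundant E2F RNAs were thus those of a factor known for repression and of an atypical factor, and E2f1, E2f2 and E2f3 together were below E2f7 and E2f8 in every spleen library: the log2 ratio of their summed RPKM was −1.04 ± 0.10 in MPP, −1.54 ± 0.25 in stress BFU-E and −1.26 ± 0.22 in CFU-E. Among the pocket proteins, Rbl1 held 52.4 ± 3.81% of the summed RPKM in stress BFU-E and Rb1 18.9 ± 1.9%. The RPKM tables keep a shorter transcript for Rbl1 than the count tables do, which raises its RPKM.

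**Figure D1:**
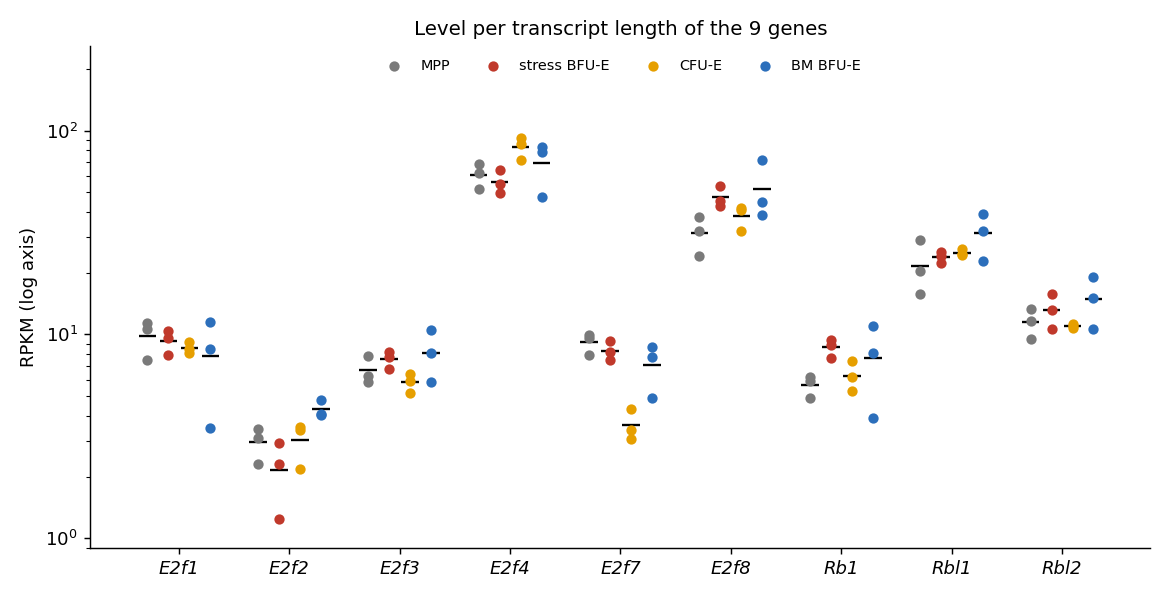
RPKM of the 9 genes on a log axis, with a point per library and a bar at the mean of 3 libraries, for MPP, stress BFU-E, CFU-E and BM BFU-E; the BM values come from the RPKM table restricted to BFU-E. The bars of E2f4 and E2f8 lie highest and that of E2f2 lowest in each population, while points of E2f2 overlap those of E2f7 in CFU-E and those of E2f1 and Rb1 in BM BFU-E.

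The spleen populations were compared to see how the family differs between neighbouring stages of stress erythropoiesis, with edgeR's quasi-likelihood test on counts and Benjamini-Hochberg adjustment over all 10166 genes. E2f7 fell and E2f4 rose in CFU-E, and E2f8 was highest in stress BFU-E. In CFU-E against stress BFU-E, 2 of the 9 genes changed, E2f4 and E2f7, and 21.1% of all genes did, so a count of this size is near the background. The library values did not overlap for 4 of the 9, against 37.5% of all genes.

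E2f7, an atypical repressor, measured 89.3, 81.7 and 99.7 CPM in MPP, 79.0, 78.0 and 93.3 CPM in stress BFU-E and 40.8, 30.7 and 37.3 CPM in CFU-E. All 3 CFU-E libraries lay below the other 6, which overlapped each other. It was 0.435-fold as high in CFU-E as in stress BFU-E, a log2 fold change of −1.20 (SE 0.17, edgeR adjusted p = 2.1e-05) and 0.402-fold as high as in MPP (−1.31, SE 0.17, edgeR adjusted p = 5.5e-06). E2f4 measured 231, 194 and 226 CPM in MPP, 223, 186 and 197 CPM in stress BFU-E and 315, 311 and 286 CPM in CFU-E. Here all 3 CFU-E libraries lay above the other 6. It rose against stress BFU-E by 0.59 on the log2 scale (SE 0.11, edgeR adjusted p = 4.5e-04) and against MPP by 0.48 (SE 0.11, edgeR adjusted p = 0.0021). In stress BFU-E against MPP neither gene passed the test, with log2 fold changes of −0.11 for E2f7 (95% interval −0.44 to 0.21) and −0.10 for E2f4 (−0.32 to 0.11).

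E2f8, the other atypical repressor, measured 236, 169 and 217 CPM in MPP, 348, 299 and 304 CPM in stress BFU-E and 265, 275 and 239 CPM in CFU-E. The stress BFU-E libraries were above all others, and the CFU-E libraries were all above those of MPP by small gaps. In stress BFU-E against MPP, E2f8 was 1.53-fold higher (log2 fold change 0.61, SE 0.12, edgeR adjusted p = 0.0039) and was the only 1 of the 9 called, against 4.13% of all genes. In CFU-E against stress BFU-E its log2 fold change was −0.29 (SE 0.12, edgeR adjusted p = 0.10). In CFU-E against MPP it was 0.33 (SE 0.12, edgeR adjusted p = 0.049), just inside the threshold, and adjusted p lay between 0.058 and 0.22 when any of CFU-E 1 or 2, MPP 2 or 3 or any stress BFU-E library was left out. With E2f4 and E2f7 this made 3 of 9 genes called in CFU-E against MPP, where 28.8% of all genes were.

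Rb1, which encodes the retinoblastoma protein, had the same order of stages as E2f8. It measured 48.1, 42.3 and 49.9 CPM in MPP, 76.3, 78.2 and 64.2 CPM in stress BFU-E and 59.1, 44.4 and 57.1 CPM in CFU-E. Stress BFU-E lay above both other populations without overlap, and those overlapped each other. No pair of stages passed the test: the log2 fold change was 0.64 in stress BFU-E against MPP (SE 0.18, edgeR adjusted p = 0.0504) and −0.45 in CFU-E against stress BFU-E (SE 0.18, edgeR adjusted p = 0.086). The first was called by DESeq2 (adjusted p = 0.015), and also by edgeR without CFU-E 2 (adjusted p = 0.039) and under 2 other settings. E2f8 and Rb1 were the 2 of 9 genes whose stress BFU-E libraries did not overlap those of MPP, against 21.4% of all genes.

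**Figure D2:**
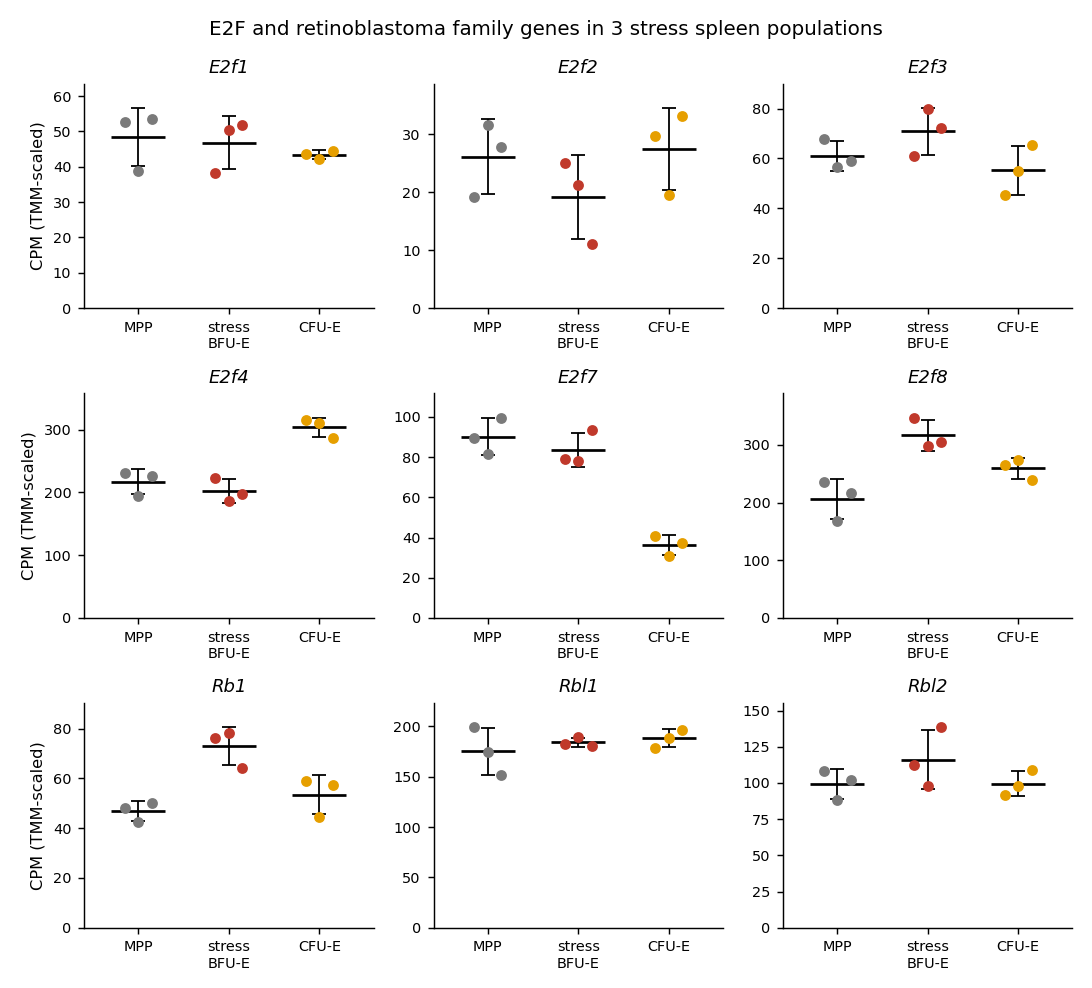
CPM of each gene (y axes, from 0, scaled by the TMM method) in the libraries of MPP, stress BFU-E and CFU-E, with mean and SD of 3 libraries. The CFU-E points of E2f7 lie at 30.7 to 40.8 CPM, below all others, and those of E2f4 at 286 to 315 CPM, above all others.

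The remaining 5 genes passed no test between the stages. E2f1 ranged from 38.2 to 53.7 CPM over the 9 spleen libraries, E2f3 from 45.4 to 79.7, and E2f2 from 11.1 to 33.1 CPM, and in all 3 the populations overlapped. The pocket protein gene Rbl1 ranged from 152 to 199 CPM and Rbl2 from 88.3 to 138 CPM. Of these 5, Rbl1 had the narrowest intervals: in CFU-E against stress BFU-E its log2 fold change was 0.03 (95% interval −0.20 to 0.26). E2f2 had the widest, with 0.52 in the same comparison (−0.11 to 1.15), so a change in it of about the size seen in E2f4 lies within its interval.

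Whether the 2 steps differ from each other was tested as the log2 fold change of CFU-E against stress BFU-E minus that of stress BFU-E against MPP. Of the 9 genes 4 passed this test, against 7.77% of all genes. The difference was 0.69 for E2f4 (SE 0.19, edgeR adjusted p = 0.027), −1.09 for E2f7 (SE 0.29, edgeR adjusted p = 0.019), −0.90 for E2f8 (SE 0.21, edgeR adjusted p = 0.0068) and −1.08 for Rb1 (SE 0.31, edgeR adjusted p = 0.030). E2f7 thus fell more at the later step than at the earlier. E2f4 had a negative log2 fold change at the earlier step and a positive at the later, and E2f8 and Rb1 a positive and then a negative. For E2f4, E2f8 and Rb1 the difference adds the sizes of both steps, and which step was larger was not tested. Stress BFU-E libraries enter both steps. Each call was lost in some fit without 1 library: E2f4 without CFU-E 1 or 2, MPP 3 or stress BFU-E 2 or 3 (adjusted p 0.051 to 0.187), E2f7 without stress BFU-E 1 or 3, E2f8 without stress BFU-E 1 (adjusted p = 0.085) and Rb1 without CFU-E 2 or stress BFU-E 1 or 2 (0.064 to 0.161), so that 1 to 4 genes were left.

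**Figure D3:**
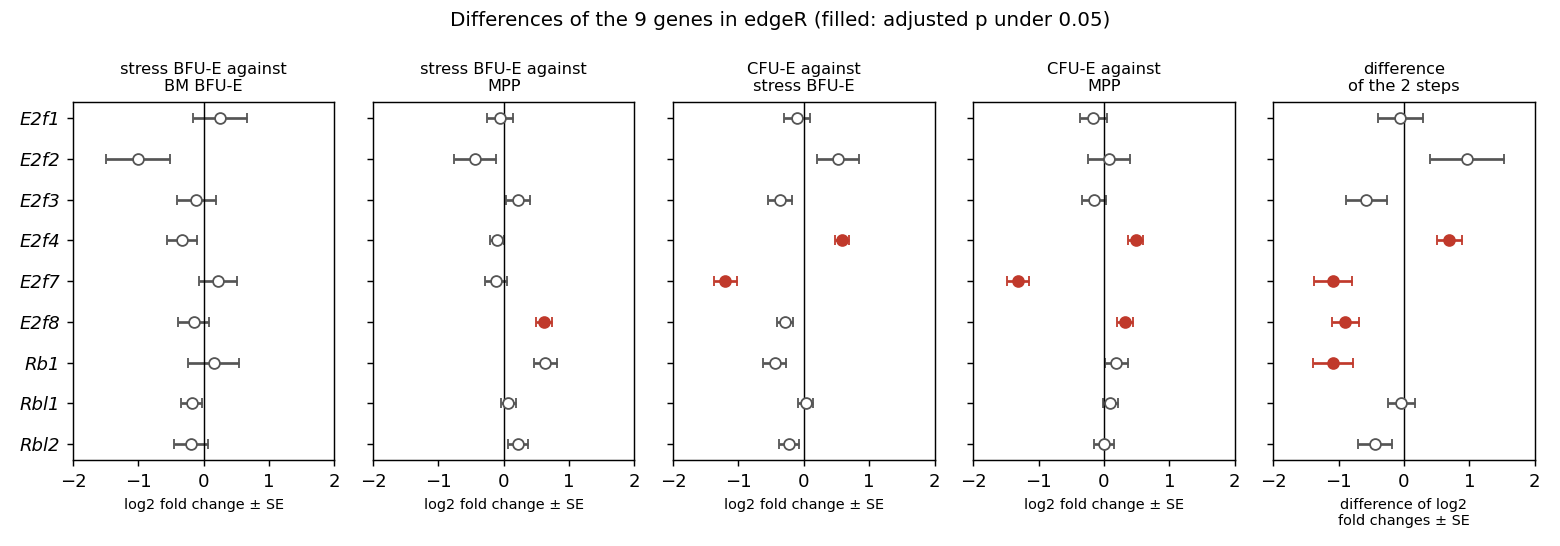
Log2 fold change ± SE of each gene in 4 comparisons and, in the last panel, the difference between the 2 spleen steps, from edgeR; filled points have an adjusted p under 0.05. No point is filled for stress against BM BFU-E, and E2f4 and E2f7 are filled in all 3 panels that include CFU-E.

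Stress BFU-E were compared with BM BFU-E to see what sets the emergency progenitors apart from those of resting marrow. None of the 9 genes was called by edgeR, against 0.112% of the 10702 genes (12 genes). At an unadjusted p under 0.05, 1053 genes (9.84%) passed and again none of the 9, and DESeq2 called 685 genes and none of the 9. E2f2, an activator, was the only 1 of the 9 without overlap, where 21.9% of all genes had none. It measured 25.4, 21.7 and 11.3 CPM in stress BFU-E against 43.0, 37.6 and 36.9 CPM in BM BFU-E. The BM libraries were close together and all higher, and stress BFU-E 3 was the lowest. The log2 fold change was −1.01 (SE 0.49, 95% interval −1.97 to −0.04, edgeR adjusted p = 0.56).

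For the other 8 genes the log2 fold change lay between −0.33 (E2f4) and 0.25 (E2f1). E2f4 measured 226, 189 and 201 CPM in stress BFU-E and 306, 180 and 290 CPM in BM BFU-E. E2f8 measured 352, 304 and 310 CPM in stress BFU-E and 491, 316 and 265 CPM in BM BFU-E. Rb1 measured 77.3, 79.5 and 65.4 CPM in stress BFU-E and 94.9, 71.5 and 33.5 CPM in BM BFU-E. In all of these the BM libraries spread around the stress libraries, and for 8 of the 9 genes the coefficient of variation was larger in BM BFU-E (8.48% to 46.6% over the 9 genes) than in stress BFU-E (2.51% to 37.6%). The intervals are correspondingly wide: they allow a log2 fold change of −0.62 to 0.92 for Rb1 and of −0.61 to 0.31 for E2f8. For Rbl1, at 185, 192 and 184 CPM in stress BFU-E and 223, 230 and 184 CPM in BM BFU-E, the interval was −0.50 to 0.14.

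E2f7, E2f1, E2f3 and Rbl2 also overlapped. E2f7 measured 80.0, 79.4 and 95.0 CPM in stress BFU-E and 79.2, 50.9 and 88.9 CPM in BM BFU-E. E2f3 measured 61.8, 81.1 and 73.4 CPM in stress BFU-E and 99.7, 57.5 and 76.6 CPM in BM BFU-E. Rbl2 measured 114, 99.6 and 141 CPM in stress BFU-E and 135, 100.1 and 170 CPM in BM BFU-E. In each of these 3 genes at least 1 BM library lay inside the range of the stress libraries. E2f1 measured 38.7, 51.2 and 52.8 CPM in stress BFU-E and 40.3, 55.5 and 24.2 CPM in BM BFU-E. BM 3, with the most genes at 0, was the lowest BM library for E2f1, E2f2, E2f8, Rb1 and Rbl1. It was the highest for E2f7 and Rbl2. Markers of other cells differed beside these values: 8 myeloid markers summed to 646 to 783 CPM in stress BFU-E against 966 to 2235 CPM in BM BFU-E, 5 stem cell markers to 108 to 121 against 260 to 348 CPM, and 8 erythroid markers to 765 to 860 against 458 to 660 CPM. Single markers went against these sums. The mean of Car1 was 28.9 CPM in stress BFU-E and 43.7 in BM BFU-E, that of Ermap 4.12 and 9.20, and that of the stem cell marker Hoxa9 20.5 and 19.2. The part of these other cells in the E2F values was not tested.

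**Figure D4:**
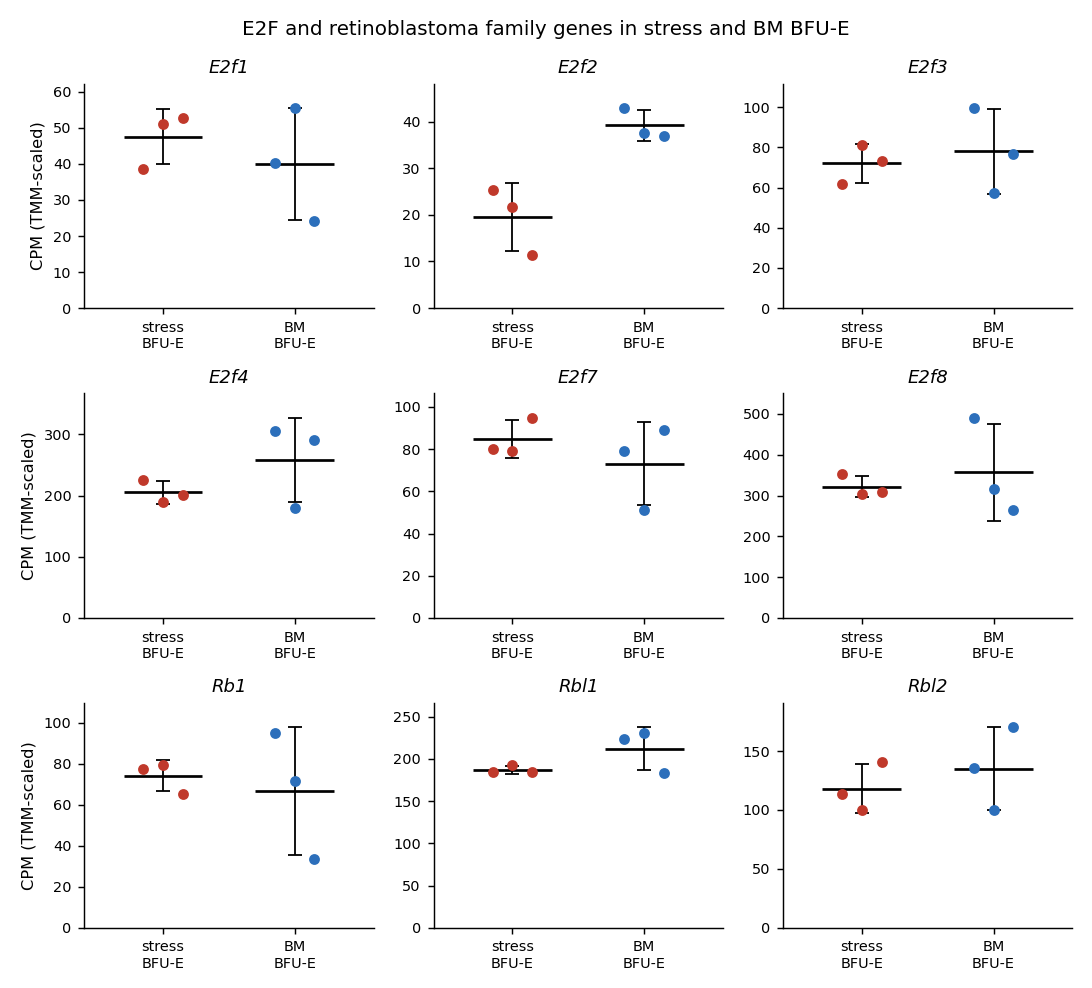
CPM of each gene (y axes, from 0, scaled by the TMM method) in the libraries of stress BFU-E and BM BFU-E, with mean and SD of 3 libraries. The 2 populations overlap in all genes but E2f2, whose stress libraries lie at 11.3 to 25.4 CPM and whose BM libraries lie at 36.9 to 43.0 CPM.

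BM BFU-E were also set against stress MPP and CFU-E. In the RPKM table of all 12 libraries the BM columns went against the counts of the same libraries: across 10702 genes their log2 values correlated at 0.465 to 0.636, while the BM columns of the RPKM table restricted to BFU-E correlated at 0.955 to 0.970 and the stress BFU-E columns of the 12-library table at 0.975 to 0.980. E2f1 was at 56.5 to 64.5 RPKM in those BM columns and at 3.47 to 11.5 RPKM in the other table. With the 12-library table, limma called 5 of the 9 genes in BM BFU-E against MPP and 4 against CFU-E, where 66.8% of all genes were called in each. With the BM columns of the other table, an alternative chosen after seeing the data, limma called 0 of the 9 against MPP (6.1% of all genes) and 1 against CFU-E (18%). On the counts of both tables joined, likewise chosen after seeing the data, edgeR called 0 against MPP (3.88%) and 1 against CFU-E (16.7%). Those joined counts gave 2 calls against MPP without BM 2 (E2f4 and E2f8) or BM 3 (E2f8 and Rb1), and 2 against CFU-E without BM 2 (E2f7 and Rbl2) or BM 3 (E2f7 and E2f8).

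That 1 gene was E2f7 in both. It was higher in BM BFU-E than in CFU-E, by a log2 difference of 0.80 on the log2(RPKM + 1) scale (SE 0.25, limma adjusted p = 0.048) and by 0.98 on joined counts (SE 0.24, edgeR adjusted p = 0.015). The call on joined counts was lost without CFU-E 2 (adjusted p = 0.070). E2f8 had a log2 fold change of 0.77 in BM BFU-E against MPP on joined counts, which did not pass (SE 0.20, edgeR adjusted p = 0.054). Lower E2f7 in CFU-E was therefore measured against MPP, stress BFU-E and, in these alternatives, BM BFU-E; the CFU-E libraries are the same in all 3 comparisons. On the 12-library table the E2f7 difference was −0.0043.

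Other genes of the pathway were described from 3 lists. Of 22 E2F target genes of S phase, 6 rose and 0 fell in CFU-E against stress BFU-E (9.17% of all genes were called higher), with a median log2 fold change of 0.22 against −0.0022 over all genes. Cdc6, which loads the MCM helicase, measured 81.6 ± 20.9 CPM in CFU-E and 44.7 ± 8.54 CPM in stress BFU-E, a log2 fold change of 0.87 (SE 0.22, edgeR adjusted p = 0.0064). Rrm2, a ribonucleotide reductase subunit, measured 127 ± 11.9 CPM in CFU-E and 80.9 ± 10.2 CPM in stress BFU-E, a log2 fold change of 0.65 (SE 0.15, edgeR adjusted p = 0.0038). The helicase genes Mcm7 and Mcm3 also rose, by 0.43 and 0.27 on the log2 scale. The call of Mcm7 was lost without stress BFU-E 1 or CFU-E 2, and that of Mcm3 without stress BFU-E 2 or 3 or CFU-E 1 or 2. The count was 2 without CFU-E 2 and 3 without stress BFU-E 1 or 2 or CFU-E 1, with Cdc6 and Rrm2 called in every fit without 1 library. Not all genes of the list were higher in CFU-E. The mean of Ccna2 was 292 CPM in stress BFU-E and 251 in CFU-E, and that of Cdk1 121 and 98.5 CPM. Ccna2 was called lower without CFU-E 1, against stress BFU-E and against MPP, and Cdk1 was called lower against MPP without MPP 1. In CFU-E against MPP, 10 of the 22 rose and 0 fell (12.7% of all genes were called higher), Cdc6 by 1.20 and the helicase genes Mcm4, Mcm5 and Mcm6 by 0.54, 0.44 and 0.43 on the log2 scale. In stress BFU-E against MPP 2 rose (2.03% of all genes), Mcm6 by 0.28 and the DNA polymerase gene Pola1 by 0.37, but Pola1 was not called in any fit without 1 library, and Mcm6 was not called without any 1 of the stress BFU-E libraries or MPP 1 or 2. None of the 22 was called in stress against BM BFU-E, where the most abundant, Mcm6 and Mcm3, had log2 fold changes of 0.05 and −0.02.

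Upstream of the retinoblastoma proteins lie the cyclins, their kinases and inhibitors, of which 12 of 15 listed genes were tested in the spleen fit. In CFU-E against stress BFU-E, 1 rose and 5 fell, where 11.9% of all genes were called lower. Ccne1, the cyclin E1 gene, measured 62.3 ± 14.1 CPM in CFU-E and 16.5 ± 3.52 CPM in stress BFU-E, a log2 fold change of 1.92 (SE 0.25, edgeR adjusted p = 8.2e-06). The D-type cyclin genes Ccnd1, Ccnd2 and Ccnd3 fell, by 0.62, 0.43 and 0.71 on the log2 scale, as did Cdkn2d, the p19 inhibitor gene, by 0.88. The kinase gene Cdk6, named after its values were seen, fell by 0.20. The lower count was 2 without stress BFU-E 2 and 3 without stress BFU-E 3 or any 1 CFU-E library. The call of Cdk6 was lost without any 1 stress BFU-E library or CFU-E 2 or 3, that of Ccnd1 without stress BFU-E 2 or 3 or CFU-E 1 or 2, and that of Cdkn2d without stress BFU-E 2 or CFU-E 1 or 3. In CFU-E against MPP, Ccne1 (1.83) and Cdk6 (0.23) rose and the same D-type cyclins fell (3 of 12, against 16% of all genes), by 0.76, 0.26 and 0.61 on the log2 scale. The call of Cdk6 was lost there without CFU-E 1, and that of Ccnd2 with RLE scaling and in 7 of the 9 fits without 1 library, all but those without MPP 2 or CFU-E 2. In stress BFU-E against MPP, Cdk6 alone rose, by 0.43. Between the 2 steps, Ccne1 differed by 2.02 and Cdk6, Ccnd2 and Ccnd3 by −0.63, −0.59 and −0.82 on the log2 scale. The call of Ccne1 there was lost without stress BFU-E 1, and Cdk6 was the only lower call left without any 1 stress BFU-E library or CFU-E 3. The call of Ccnd2 was also lost without MPP 2 or CFU-E 1, and that of Ccnd3 without MPP 3 or CFU-E 2. In stress against BM BFU-E none of 12 tested genes was called; Cdk6, the most abundant, measured 1488 ± 63.0 CPM in stress BFU-E and 923 ± 243 CPM in BM BFU-E (edgeR adjusted p = 0.32).

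The last list holds 12 E2F partners and members of the MuvB complex, which joins E2F4 and the p130 or p107 protein in the DREAM repressor. Of its 11 tested genes 2 were called in CFU-E against stress BFU-E (21.1% of all genes) and 2 in CFU-E against MPP (28.8%), so neither count stands above the background. E2f6, a repressor that acts without pocket proteins, measured 55.9 ± 6.24 CPM in MPP, 50.7 ± 4.37 CPM in stress BFU-E and 87.2 ± 2.46 CPM in CFU-E, with log2 fold changes of 0.78 in CFU-E against stress BFU-E (SE 0.16, edgeR adjusted p = 0.0014) and 0.64 against MPP (SE 0.17, edgeR adjusted p = 0.0057). Foxm1, a factor of late cell cycle genes, fell by 0.39 on the log2 scale in CFU-E against stress BFU-E, a call lost without stress BFU-E 1 or 2 or CFU-E 2 or 3. Tfdp2, a DP partner of the E2Fs, rose by 0.41 on the log2 scale in CFU-E against MPP, a call lost without any 1 MPP library, stress BFU-E 3 or CFU-E 2 or 3. In stress BFU-E none was called against MPP or against BM BFU-E, and the most abundant, Rbbp4 and Tfdp1, had log2 fold changes of 0.12 and 0.04 against MPP and 0.28 and −0.13 against BM BFU-E.

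The genes whose log2 CPM followed the members most closely over the 9 spleen libraries were listed by Pearson's r, as a description. These libraries share 3 sorts, so a difference between populations is enough for a high r. For E2f7 they were Pear1 (0.990), Sptan1 (0.989) and St3gal1 (0.988), for E2f4 Pla2g12a (0.988), Larp1 (0.971) and Psmd7 (0.970), for E2f8 Fam78a (0.953), Fadd (0.944) and Tmem9b (0.941) and for Rb1 Pdcd6ip (0.954), Kdelr2 (0.921) and Dffa (0.914). The closest genes of the others were Tmem241 for E2f1 (0.952), Emc3 for E2f2 (0.946), Fnip1 for E2f3 (0.977), Pde4d for Rbl1 (0.956) and Tm9sf4 for Rbl2 (0.916). Between members, r was lowest for E2f4 with E2f7 (−0.87) and highest for E2f8 with Rb1 (0.79).

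Open chromatin was compared between the BFU-E populations on 1 peak list each, so replicates cannot be compared, and the score of a peak is the authors' own. The names of both lists carry idr, a label for peaks kept by their agreement between replicates. The part of that agreement in the list sizes and in missing peaks was not tested. In stress BFU-E 46 peaks were assigned to the 9 genes, against 25 in BM BFU-E. This follows the lists as a whole, which hold 61661 and 35142 peaks, and the depth of the ATAC libraries is unknown. Of the 46 stress peaks 24 (52.2%) overlapped a BM peak by at least 1 base, where 55.0% of all stress peaks did. Of the 25 BM peaks 24 (96.0%) overlapped a stress peak, where 95.5% of all BM peaks did. In 8 of the 9 genes stress BFU-E had more peaks, all but E2f4 with 1 in each, and 65.6% of 18139 genes had more. E2f7 had the most, 11 in stress BFU-E and 5 in BM BFU-E.

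The genes had a peak at the start site in both populations, with the exception of E2f2. E2f2 had 2 promoter peaks in stress BFU-E and none in BM BFU-E: chr4:136171977-136172383, centred 94 bases before the start site with the highest score of 1000, and chr4:136172494-136173192 in the first exon with a score of 572. The first spans the 250 bases of E2f2 and the word stretch printed above. Of 12450 genes with a promoter peak in stress BFU-E, 16.5% had none in BM BFU-E. The only E2f2 peak in BM BFU-E was chr4:136174891-136175101, in the first intron, with a score of 462, and it overlapped a stress peak with a score of 489. The RNA of E2f2 did not pass the test between these populations (edgeR adjusted p = 0.56).

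Of the 22 stress peaks without a BM partner, 20 lay over 1 kb from the start site. In the whole list, 25347 of the 27740 stress peaks without a BM partner did, so this is near the background. The median score of the 22 was 788, against 1000 for the 24 shared ones. At E2f7 the unshared peaks lay from 68.8 kb before to 60.0 kb after the start site. At E2f8, unshared peaks with a score of 1000 lay 1.46 kb before and 16.3 kb after the start site. At Rb1 they lay in introns, 22.4 and 35.8 kb after the start site, and at E2f3 in the first intron, 5.13 and 19.9 kb after it. The 1 BM peak without a stress partner lay 15.6 kb before Rbl2, with a score of 468. It was annotated at the end of another gene's transcript. Peaks were assigned by the gene name that the authors' lists give, and some lie within neighbouring genes. The GATA word AGATAA, on either strand, was within 100 bases of the centre of 1 of the 30 distal stress peaks of the genes other than E2f8 (3.33%), against 14.0% of all distal stress peaks. At promoters, 1 of their 10 stress peaks held an E2F word in that window, against 2.38% of all promoter peaks. A match is a description and no match says only that these letters were not in the window.

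**Figure D5:**
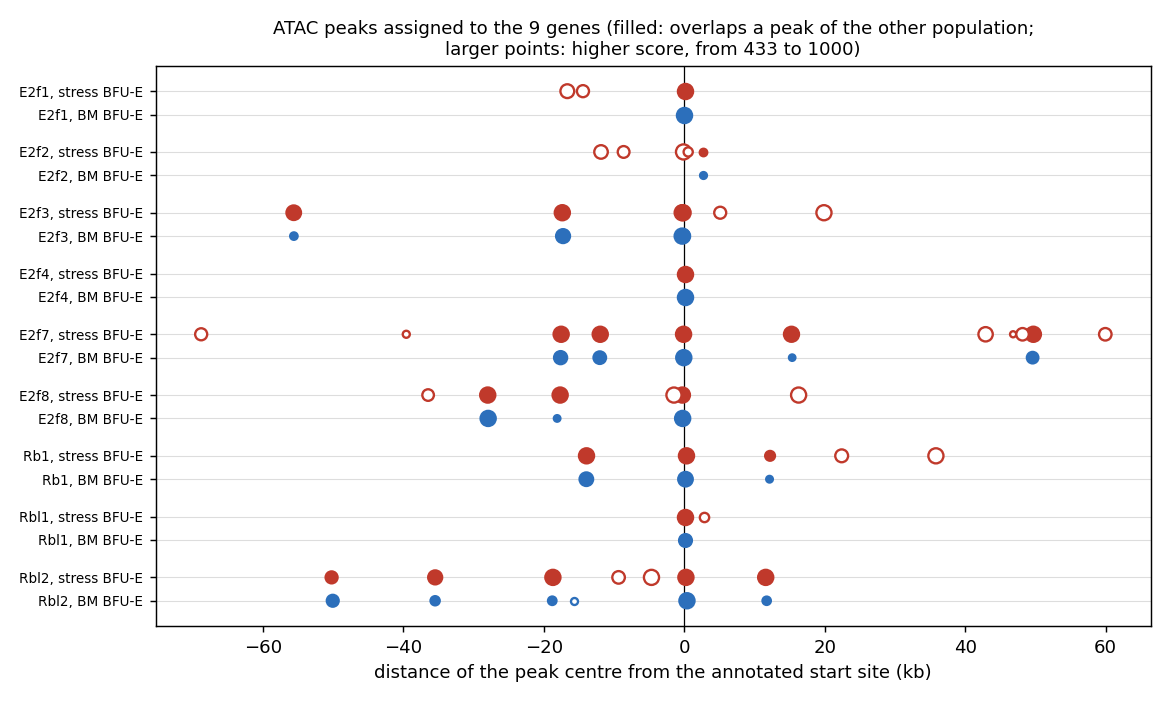
ATAC peaks assigned to the 9 genes, by distance of the peak centre from the annotated start site in kb (x axis), with a row for stress BFU-E (red) and one for BM BFU-E (blue) per gene. Filled points overlap a peak of the other population and larger points have a higher score; E2f2 has open points at 0 kb in stress BFU-E and no point there in BM BFU-E.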

How the data were processed

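The submitters' processing notes list STAR 2.6.0b-1 and Bowtie2 2.3.4.2, and also HOMER 4.8 and DESeq2 without a version, with mouse build mm10 (GRCm38). The deposited count tables are, per the file headers, HOMER counts over exons with 1 transcript per gene and no normalisation. The deposited RPKM tables hold reads that the authors scaled to transcript length and library size. The deposited ATAC lists, named idr, give 1 set of peaks per population and the authors' score for each. The peak caller is not given in the sources used here.

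Tests on counts used edgeR 4.0.16 in R 4.3.3 (TMM, quasi-likelihood F test, Benjamini-Hochberg adjustment over all genes, threshold 0.05), in one fit of the 9 spleen libraries for genes with a mean of at least 50 counts and one of the 6 BFU-E libraries. The SE is the log2 fold change divided by the square root of F, and 95% intervals are 1.96 SE. These intervals are approximate and somewhat narrower than the F test implies, so the p-values decide the calls. For BM BFU-E against MPP and CFU-E, limma 3.58.1 was run on log2(RPKM + 1), for genes at 1 RPKM or more in 3 libraries. DESeq2 1.42.0, other scalings and filters, and fits without each library were alternatives. Each of the 9 genes had 141 or more counts in a library, and the part of counting in the spread between libraries was not tested. Promoter peaks lay within 1000 bases of a start site. Sequence at E2f8 is not reported here. The fits were tested on simulated data. The 9 genes, the lists and the rule for likeness were chosen with earlier results of these data known. The naming rule took, per list and direction, up to 4 genes with the smallest adjusted p, or the 2 most abundant where none passed, and the 3 genes most like each of the 9; a part of these is printed, and marker lists are given as sums.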

Additional observations from a re-analysis of the deposited data

How the results depend on the processing

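Over the alternatives of the called results on single genes, 246 of 303 kept direction and call, 47 lost the call and 10 reversed. These 303 include calls of BM BFU-E against MPP and CFU-E on the 12-library BM columns. Most alternatives of those calls reuse the same columns, so keeping a call there says little about it. All 10 reversals were among those calls, with the other BM columns or on joined counts. Over the results not called, 482 of 524 kept both, 34 reversed and 8 gained a call. These 524 are not all of them. In BM BFU-E against MPP and CFU-E, E2f8, Rb1, Rbl1 and Rbl2 were left out. They were called neither on the 12-library columns nor, with all libraries, with the other BM columns or on joined counts. E2f7 (−1.30 to −1.09 against stress BFU-E, −1.41 to −1.21 against MPP) and E2f4 (0.53 to 0.66 and 0.41 to 0.53) kept their calls in CFU-E in every alternative run, as did E2f8 in stress BFU-E against MPP (0.49 to 0.72). The number of the 9 genes called in stress BFU-E against MPP was 2 with DESeq2, 2 with every gene that had a count and 2 with RLE scaling, and 1 to 2 without 1 library. Without 1 library it was 1 to 4 for the difference of the steps, 2 to 3 in CFU-E against stress BFU-E, 2 to 3 in CFU-E against MPP and 0 to 0 in stress against BM BFU-E. In limma on the 12-library RPKM table, stress against BM BFU-E gave 6 calls, with reversed log2 fold changes for E2f1 (−2.59), E2f3 (1.51), E2f8 (0.83), Rbl1 (0.48) and Rbl2 (0.63). BM BFU-E against CFU-E gave 1 call with the BM columns of the BFU-E table and 1 on joined counts, against MPP 0 and 0, and without 1 library and the 12-library columns 3 to 6 and 4 to 6. With those BM columns and on joined counts, in that order, the reversed values were −0.24 and −0.15 for E2f1, 0.40 and 0.47 for E2f3, −0.29 and −0.26 for E2f4 and 0.80 and 0.98 for E2f7 against CFU-E, and −0.40 and −0.30 for E2f1 and 0.23 and 0.33 for E2f3 against MPP. The log2 ratio of E2f1, E2f2 and E2f3 to E2f7 and E2f8, stress minus BM BFU-E, was −2.79 on that table but −0.0241 from CPM and −0.0258 with the other BM columns. Rbl2 in CFU-E against MPP, −0.0031, was 0.0009 with DESeq2, 0.0241 with every gene that had a count, 0.0011 with RLE scaling and 0.0012 without non-coding RNA. Without 1 library, log2 fold changes that crossed 0 ran in stress against BM BFU-E from −0.0043 to 0.57 for E2f1, −0.28 to 0.11 for E2f3, −0.32 to 0.16 for E2f8, −0.16 to 0.51 for Rb1 and −0.36 to 0.0089 for Rbl2; in stress BFU-E against MPP from −0.19 to 0.0738 for E2f1 and −0.0213 to 0.17 for Rbl1; in CFU-E against stress BFU-E from −0.0014 to 0.0665 for Rbl1; in CFU-E against MPP from −0.11 to 0.27 for E2f2 and −0.0809 to 0.0653 for Rbl2; in the difference of the steps from −0.31 to 0.11 for E2f1 and −0.14 to 0.0577 for Rbl1; and in BM BFU-E against CFU-E from −0.35 to 0.36 for E2f7. The cause was not tested. No value of an ATAC library was at hand, so peaks rest on the lists alone: at a score of at least 540, 43 stress peaks remained, against 17 in BM. Scores were lower in the BM list as a whole, with a median of 811 over all its peaks against 992 over all stress peaks.

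Replicate numbers are shared between groups. Deviations of same-numbered samples correlated at −0.03 to 0.134, and in the spleen 16 of 18 checks, but 0 of 6 between the BFU-E populations, found a sample closest to its own number, which is a hint from the data and not from the design. With the replicate block the 9 genes gave 0 calls in stress against BM BFU-E, 1 in stress BFU-E against MPP, 2 in CFU-E against stress BFU-E, 3 in CFU-E against MPP and 4 for the difference of the steps, as without it, and 4 and 3 in BM BFU-E against MPP and CFU-E. Over all genes it called 3, 476, 2221, 2972 and 852 in the first 5, against 12, 420, 2145, 2924 and 790 without it. In stress against BM BFU-E, DESeq2 called 685 genes and edgeR on joined counts 275.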
